A study of Mus musculus with 2 samples.

Results

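The 10 genes described here belong to the trophoblast programme and to the Rhox homeobox cluster, and they were measured in a pair of mouse embryonic stem cell cultures. They are the trophoblast regulators Cdx2, Tfap2c, Eomes and Gata3, the placental basic helix-loop-helix genes Ascl2 and Hand1, the X-linked placental genes Esx1 and Plac1, and the Rhox genes Rhox6 and Rhox9. Members were every probe set annotated to exactly 1 gene with 1 of these 10 symbols, which gave 17 probe sets for 10 genes, of 34945 probe sets for 18193 genes in all. The arrays hold total RNA of 1 culture with the genotype labelled MOF-/- (Mof null) and 1 culture labelled MOF +/+ (Mof wild type). Mof, whose gene symbol is Kat8, is an acetyltransferase of histone H4. Both lines are C57BL/6 embryonic stem cells derived at 3.5 days post coitum and were used at passage 15 to 18. Both were kept on mouse embryonic fibroblast feeders with LIF and then passaged 2 times without feeders to remove them. The sources used here do not say how Mof was deleted or how many clones each culture represents.

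The first lineage decision of the mouse embryo separates the trophectoderm, which forms the trophoblast of the placenta, from the inner cell mass, from which embryonic stem cells are grown. Cdx2, Eomes, Tfap2c and Gata3 are transcription factors known to promote or maintain the trophoblast state, and Cdx2 and the pluripotency factor Oct4 (Pou5f1) repress each other. The Rhox genes are reproductive homeobox genes that lie in a cluster on the X chromosome, and Rhox6 and Rhox9 were first named Psx1 and Psx2, for placenta-specific homeobox.

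Values are RMA values on a log2 scale, and a difference is the null value minus the wild type value. With 1 array per genotype there is no replicate error, no p-value and no test, and genes were counted by size only, at 2-fold or more (an absolute log2 difference of at least 1). Each gene is represented by its brightest probe set and is called expressed if it reached 6.02, the median of all values, on at least 1 array. The only available yardstick of spread is that between probe sets of the same gene, whose differences had a pooled SD of 0.33 in 5362 genes with several expressed probe sets; it holds no variation between cultures. The only Kat8 probe set read 8.37 on the array labelled null and 8.06 on the array labelled wild type. No source used here places it relative to the deleted part, so it does not check the labels, and the arrays are called by their labels, null for Mof null and wild type for Mof wild type.

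Markers of other cells also separated these arrays. By their brightest probe sets, all 20 embryonic stem cell identity genes were expressed and higher on the array labelled null. Of these, 3 were at least 2-fold higher, and the median difference was 0.59. Other probe sets of Tbx3, Utf1 and Tfcp2l1 reached lower differences of -0.80, -0.12 and -0.029. By their brightest probe sets, all 20 feeder fibroblast genes (median -2.06) and all 12 macrophage genes (median -2.08) were at least 2-fold lower there. Some other probe sets of Dcn, Acta2, Fbln2, Prrx1, Csf1r and Ptprc differed by less than 2-fold. Over all 12015 expressed genes, 11.9% were 2-fold lower or more, 5.09% at least 2-fold higher and 56.7% higher by any amount. None of the fibroblast genes was below the level filter on either array. The 2 macrophage genes Ptprc and Itgam were below it on the array labelled null. They passed the filter through their higher array alone, so they had to differ, and their place in the macrophage count is not read as a result. The summed linear level of the fibroblast list was 39820 on the array labelled null and 133876 on the array labelled wild type, and that of the macrophage list was 4135 on the array labelled null and 17584 on the array labelled wild type. In a culture that holds several cell types, fewer cells of a type and less RNA per cell cannot be told apart, and the part of these markers in the differences below was not tested.

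The promoters of 6 members were found in the RefSeq promoter table, and the 250 bases before the transcript start are shown for the 3 of these members with the largest differences, Eomes, Esx1 and Gata3. They are read 5′ to 3′ on the gene's strand, in build GRCm38.p6, at chr9:118477939-118478188 (plus strand) for Eomes, chrX:137120327-137120576 (minus strand) for Esx1 and chr2:9878601-9878850 (minus strand) for Gata3. The Esx1 and Gata3 windows lie inside the annotated span of their genes. Capitals mark matches on either strand to GCCNNNGGC (the AP-2 motif, bound by Tfap2c), GGTGTGA (T-box, the family of Eomes), CANNTG (E-box, the site of helix-loop-helix factors such as Ascl2 and Hand1) and AGATAA, which zinc finger factors such as Gata3 bind.
Eomes: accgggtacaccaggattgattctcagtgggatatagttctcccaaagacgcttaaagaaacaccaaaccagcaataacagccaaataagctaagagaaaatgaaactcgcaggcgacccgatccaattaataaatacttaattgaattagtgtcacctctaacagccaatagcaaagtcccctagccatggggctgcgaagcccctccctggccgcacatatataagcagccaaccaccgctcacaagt
Esx1: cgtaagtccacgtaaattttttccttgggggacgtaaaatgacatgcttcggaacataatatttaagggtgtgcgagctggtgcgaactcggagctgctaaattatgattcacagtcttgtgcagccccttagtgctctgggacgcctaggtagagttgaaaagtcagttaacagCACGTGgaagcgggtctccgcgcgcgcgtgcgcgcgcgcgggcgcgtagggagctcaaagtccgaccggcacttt
Gata3: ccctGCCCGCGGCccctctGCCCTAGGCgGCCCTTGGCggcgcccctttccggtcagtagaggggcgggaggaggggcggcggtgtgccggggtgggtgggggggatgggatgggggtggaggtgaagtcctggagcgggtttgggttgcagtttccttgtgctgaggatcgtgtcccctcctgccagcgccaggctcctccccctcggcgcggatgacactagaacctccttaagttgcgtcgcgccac
The Gata3 window held 3 AP-2 matches, which do not overlap each other, and the Esx1 window held 1 E-box, while none of the motifs was found in the Eomes window. Of all 32851 windows of this length, 13.7% held an AP-2 match, 66.2% an E-box, 3.33% a T-box match and 9.99% a match to the Gata3 motif. The windows also differed in CpG content, with 8 CpG dinucleotides for Eomes, 24 for Esx1 and 19 for Gata3, against a median of 6 over all windows. A match is a description of the letters and is no evidence of binding.

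On the array labelled null most of the 10 genes read higher, and few passed 2-fold. Tfap2c and Esx1 passed 2-fold upward, and Eomes was higher by 1.79-fold. Gata3 read more than 2-fold lower, but it passed the level filter through its higher array alone. Of the 10 genes, 8 passed the level filter, 7 of them on both arrays; Gata3 passed on the array labelled wild type alone, and Cdx2 and Plac1 were below it on both. Among the 8 genes that passed, 6 were higher and 2 lower, with 2 genes past 2-fold upward and 1 downward, and the median difference was 0.42. Over all 12015 expressed genes, 5.09% were at least 2-fold higher, 11.9% were 2-fold lower or more, and 56.7% higher by any amount, and the median difference was 0.10. The single lower gene is near its background share. It is Gata3, which passed the filter through its higher array alone, so this count is not read as a result. Of the higher genes, Esx1 lies at the 2-fold line. Relative to the median of the embryonic stem cell identity genes, no member was 2-fold higher, 1 was 2-fold lower and the members' median was -0.17. In that scaling the median of all expressed genes was -0.49, with 94 genes past 2-fold upward and 2881 downward, while 611 and 1429 passed it in the values as deposited.

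**Figure D1:**
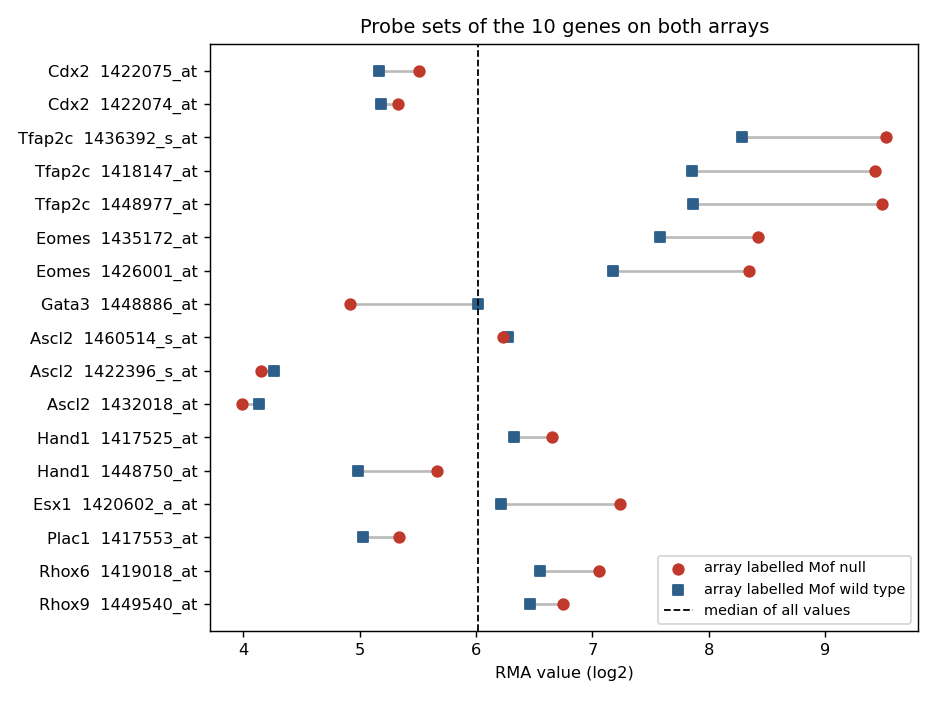
RMA values (log2, x axis) of the 17 probe sets of the 10 genes (rows) on the array labelled null (circles) and the array labelled wild type (squares), with the median of all values, 6.02, as a dashed line. The 3 Tfap2c and 2 Eomes probe sets lie to the right of the line on both arrays and are higher on the array labelled null, whereas both Cdx2 probe sets lie to the left of it.

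Tfap2c, which encodes the transcription factor AP-2 gamma and is also known from primordial germ cells, had the largest difference of the regulators. Its brightest probe set, 1436392_s_at, read 9.52 on the array labelled null and 8.29 on the array labelled wild type. Probe set 1418147_at read 9.43 on the array labelled null and 7.86 on the array labelled wild type, and 1448977_at read 9.49 on the array labelled null and 7.86 on the array labelled wild type. All 3 probe sets were thus past 2-fold, with differences of 1.24, 1.57 and 1.63, or 2.35-fold, 2.97-fold and 3.09-fold. The array labelled null was high on each, and the SD among these differences was 0.21. Of the expressed genes, 2.38% had a more positive difference than the brightest Tfap2c probe set. Relative to the stem cell identity genes the difference of Tfap2c was 0.64, so it stayed positive but under 2-fold.

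Eomes encodes a T-box factor that maintains trophoblast stem cells and also acts in mesoderm and definitive endoderm. Its probe set 1435172_at read 8.43 on the array labelled null and 7.58 on the array labelled wild type, a difference of 0.84. The other, 1426001_at, read 8.35 on the array labelled null and 7.18 on the array labelled wild type, a difference of 1.17 or 2.25-fold. Both probe sets were higher on the array labelled null, and they fell on either side of the 2-fold line. Eomes is not counted among the genes past 2-fold because its brightest probe set is under it; the mean of both probe sets, with a difference of 1.01, would pass. Relative to the stem cell identity genes the difference of Eomes was 0.25. Of the expressed genes, 8.31% had a more positive difference.

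Lists of other early lineages gave the following counts. Of 17 expressed primitive endoderm genes, 10 passed 2-fold upward and none downward, and the median difference was 1.04. Among the upward genes, Hnf4a and Apoa1 passed the level filter on the array labelled null alone, so they had to differ. The shares over all expressed genes were 5.09% at least 2-fold higher and 11.9% 2-fold lower or more. Of 16 genes on the array for primitive streak and mesoderm, where Eomes also acts, 6 were expressed, of which 1 passed 2-fold upward and 3 downward. The upward gene, Lhx1, and the downward gene Foxc1 also passed the filter through their higher array alone. Mixl1, Mesp1 and Evx1, genes of the primitive streak and early mesoderm, were below the level filter on both arrays.

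Cdx2, the caudal-type homeobox factor that specifies trophectoderm, stayed below the level filter on both arrays. Its probe set 1422075_at read 5.51 on the array labelled null and 5.17 on the array labelled wild type. The second, 1422074_at, read 5.33 on the array labelled null and 5.18 on the array labelled wild type. The differences of 0.34 and 0.14 lie in the part of the scale where RMA compresses differences and where a value may be background. Their sizes are within or close to the probe set SD of 0.33, and the difference of Cdx2 was -0.25 relative to the stem cell identity genes.

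Gata3, a zinc finger factor that acts beside Cdx2 in trophectoderm and is also known from T cells and other tissues, was the only member lower by 2-fold. Its 1 probe set read 4.92 on the array labelled null and 6.02 on the array labelled wild type, a difference of -1.10. The value on the array labelled wild type only just reached the level filter (6.019 against 6.016), and after quantile normalization of the table Gata3 no longer did. A gene that passes the filter through its higher array alone has to differ, and its value on the other array may be background. The size of the Gata3 difference is therefore not read as a result. The 20 fibroblast genes had differences between -2.92 and -1.20, and any part of fibroblast RNA in the Gata3 values was not tested.

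**Figure D2:**
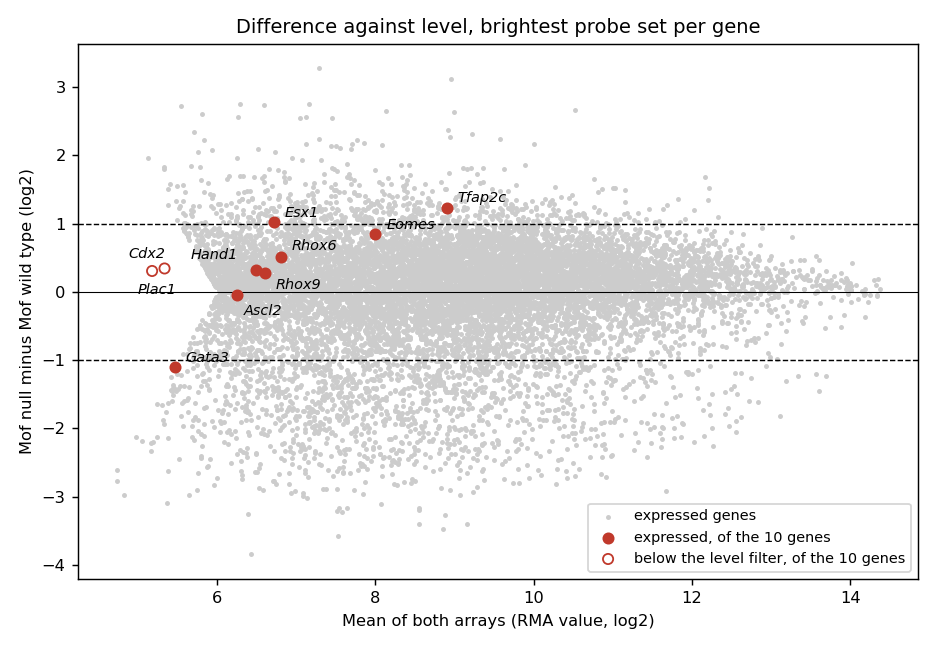
Difference between the array labelled null and the array labelled wild type (log2, y axis) against the mean of both arrays (log2, x axis) for each of 12015 expressed genes (grey), with the 10 genes in red and open circles for those below the level filter. Tfap2c and Esx1 lie above the upper dashed line (2-fold higher), Gata3 lies below the lower one, and all but Tfap2c and Eomes have a mean level under 7.

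Most of the 10 genes had low values. At mean levels from 6 to 7, where Esx1, Hand1, Ascl2, Rhox6 and Rhox9 lie, 1814 expressed genes had a median difference of 0.10, and 5.90% passed 2-fold upward and 12.8% downward. At levels from 8 to 9, where Tfap2c and Eomes lie, 2235 genes had a median of 0.052, with 5.59% at least 2-fold higher. Over all 17 probe sets, 10 were above the filter on both arrays, 1 on 1 array and 6 on neither. Of the 17, 13 were higher and 4 lower, and the probe sets of each of the 5 genes with several shared a sign. Probe sets of the same gene are not separate genes. Counted by gene and without a level filter, 8 of the 10 genes were higher, against 10908 of all 18193 genes.

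The placental helix-loop-helix genes differed little. Ascl2, the maternally expressed imprinted gene needed for the spongiotrophoblast and also called Mash2, read 6.23 on the array labelled null and 6.27 on the array labelled wild type with its brightest probe set, 1460514_s_at. Its other probe sets were far below the filter, 1422396_s_at with 4.15 on the array labelled null and 4.26 on the array labelled wild type, and 1432018_at with 3.99 on the array labelled null and 4.14 on the array labelled wild type. The 3 differences, from -0.14 to -0.043, stayed under the probe set SD of 0.33. Since only 1 of 3 probe sets reached the filter, and by a small margin, the Ascl2 values do not show whether the transcript was present.

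Hand1, which is needed for trophoblast giant cells and is also a gene of the heart and extraembryonic mesoderm, was slightly above the filter with 1 probe set. Probe set 1417525_at read 6.65 on the array labelled null and 6.33 on the array labelled wild type, a difference of 0.32. Probe set 1448750_at read 5.67 on the array labelled null and 4.99 on the array labelled wild type, a difference of 0.68 below the filter. Both were higher on the array labelled null and under 2-fold, and relative to the stem cell identity genes the difference of Hand1 was -0.27. Hand2, the relative of Hand1 known from heart and limb, was lower instead, at 6.13 on the array labelled null and 7.95 on the array labelled wild type, though its 3 probe sets ranged from -1.82 to -0.096.

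Of the X-linked placental genes, Esx1 passed 2-fold and Plac1 did not. Esx1, an extraembryonic homeobox gene needed for the placental labyrinth, read 7.23 on the array labelled null and 6.22 on the array labelled wild type. Its difference of 1.02, or 2.02-fold, only just passed 2-fold, and it fell under it after centring on the median gene or correcting the trend with level; its only probe set has the suffix _a_at. Of the expressed genes, 4.79% had a more positive difference, and relative to the stem cell identity genes the difference of Esx1 was 0.43. Plac1, a placental membrane protein gene, read 5.34 on the array labelled null and 5.03 on the array labelled wild type, below the filter on both. Its difference of 0.31 was within the spread between probe sets and was -0.28 relative to the stem cell identity genes.

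Rhox6 and Rhox9 were each read by 1 probe set and lay modestly above the filter. Rhox6 read 7.06 on the array labelled null and 6.55 on the array labelled wild type, a difference of 0.51 or 1.42-fold. Rhox9 read 6.75 on the array labelled null and 6.47 on the array labelled wild type, a difference of 0.28 or 1.22-fold. Both were higher on the array labelled null, Rhox6 by more and Rhox9 by less than the spread between probe sets, and their differences were -0.082 and -0.31 relative to the stem cell identity genes. These genes are paralogues, and no source used here says whether their probe sets also pick up each other's transcripts.

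Of 33 protein-coding Rhox genes in RefSeq, 4 had a probe set that names them alone, and the remaining ones outside the 10 genes were Rhox5 and Rhox13. Rhox5, first named Pem and the cluster's best known member in stem cells and testis, read 12.7 on the array labelled null and 11.8 on the array labelled wild type. Its difference was 0.89, or 1.85-fold. Rhox13 read 10.9 on the array labelled null and 9.79 on the array labelled wild type, a difference of 1.09 or 2.12-fold. All 4 measured Rhox genes were higher on the array labelled null in the values as deposited, but Rhox6 and Rhox9 turned negative relative to the stem cell identity genes. In the RefSeq gene order Rhox5 is the direct neighbour of Rhox6, and Rhox7a and Rhox8 lie between Rhox6 and Rhox9.

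All 4 members on the X chromosome, namely Esx1, Plac1, Rhox6 and Rhox9, were higher on the array labelled null as deposited, whereas Plac1, Rhox6 and Rhox9 turned negative relative to the stem cell identity genes. Of 403 expressed genes of the X chromosome, 55.1% were higher by any amount, with a median of 0.098, and of 11573 autosomal genes 56.7%, with a median of 0.10. The shares past 2-fold differed more, since 10.2% of X-linked and 4.88% of autosomal genes were at least 2-fold higher, while 11.7% of X-linked and 11.9% of autosomal genes were 2-fold lower or more. Esx1, Rhox13 and Cited1, described with the placental genes, were among the 41 X-linked genes at least 2-fold higher, so that share includes genes described here. Of these, Cited1 passed the filter through its higher array alone, so it had to differ.

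The wider trophoblast genes went both ways. Of 24 genes of trophoblast specification on the array, 1 of which (Lin28a) the stem cell identity list also holds, 21 were expressed. Of these, 2 passed 2-fold upward and 4 downward, beside shares of 5.09% and 11.9% over all expressed genes. Their median difference was -0.25 against 0.10 over all expressed genes. The 4 with the largest differences were the simple keratin gene Krt7, the tetraspanin gene Tspan8, the Yap1 relative Wwtr1 (Taz) and the helix-loop-helix inhibitor gene Id2. Krt7 read 6.06 on the array labelled null and 7.91 on the array labelled wild type, 3.60-fold lower. Wwtr1 was 2.35-fold lower and Id2 2.20-fold lower, and the 3 Id2 probe sets ranged from -2.33 to -0.61. Tspan8 was 2.39-fold higher on its brightest probe set, while the lowest of its 5 probe sets differed by -0.062. Krt7, Wwtr1 and Id2 are also expressed in epithelia or fibroblasts. The fibroblast list had its median at -2.06, and any part of fibroblast RNA in the values of these genes was not tested.

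Of the trophoblast markers outside the 10 genes, Elf5, Tead4 and Tpbpa were low. Krt7, another of these markers, read 6.06 on the array labelled null and 7.91 on the array labelled wild type. Among the 10 genes, Tfap2c and Eomes were above the filter on both arrays with each of several probe sets. Esx1, Rhox6 and Rhox9 were above it on both arrays with their only probe set. Elf5, a factor that is closed off by DNA methylation in embryonic stem cells and open in trophoblast stem cells, read 4.45 on the array labelled null and 4.56 on the array labelled wild type, below the filter on both. Tead4, which acts upstream of Cdx2, read 6.03 on the array labelled null and 5.76 on the array labelled wild type. Tead4 only just passed the filter, on the array labelled null alone, so it had to differ. Tpbpa, a spongiotrophoblast marker, read 3.96 on the array labelled null and 3.44 on the array labelled wild type. Prl3d1, the giant cell hormone gene, had no probe set that names it alone.

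Genes of placental differentiation were mostly below the filter. Of 26 on the array, 9 were expressed, of which 2 passed 2-fold upward and 3 downward, and their median difference was -0.0033. The matching shares over all expressed genes were 5.09% upward and 11.9% downward. Cited1, an X-linked coactivator gene of the placenta and other tissues, read 8.54 on the array labelled null and 5.79 on the array labelled wild type. Like Gata3 it passed the filter through its higher array alone, so it had to differ. Its place in the upward count is therefore not read as a result, and no fold is given. The imprinted growth-restraining gene Phlda2 was 3.0-fold higher, with 9.42 on the array labelled null and 7.84 on the array labelled wild type. Hand2, which the mesoderm list also holds, was 3.54-fold lower, and the endothelial protein C receptor gene Procr was 2.56-fold lower. The Hand2 value on the array labelled null, 6.13, lay just above the filter and may be background. The placental prolactin genes Prl8a9, Prl7d1 and Prl4a1 lay between 3.64 and 4.55 on the array labelled null and between 3.51 and 4.52 on the array labelled wild type.

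**Figure D3:**
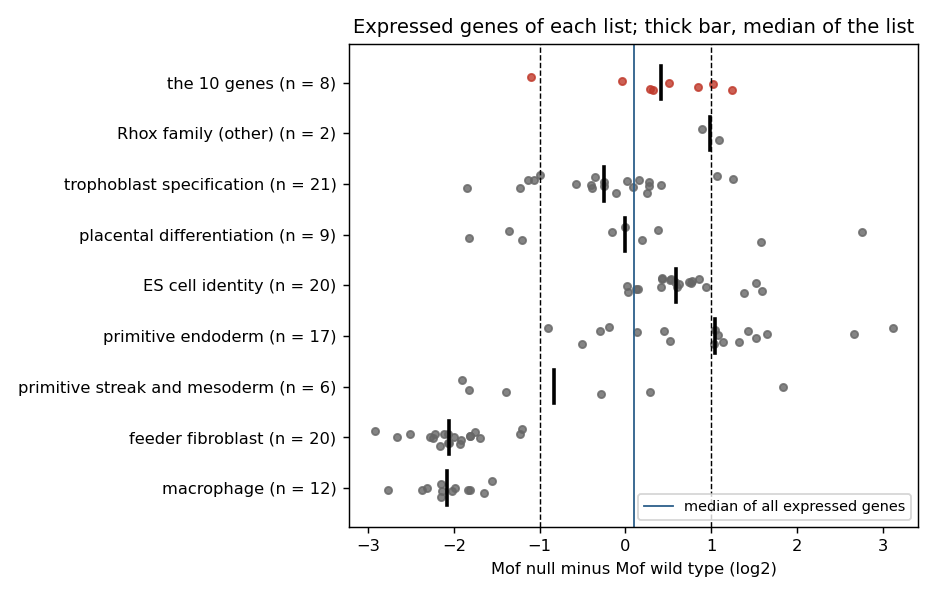
Differences between the array labelled null and the array labelled wild type (log2, x axis) of the expressed genes of the 10 genes and of 8 further lists (rows, 1 point a gene), with the median of each list as a thick bar, 2-fold as dashed lines and the median of all expressed genes as a blue line. The expressed genes among the 10 have a median of 0.42, between those of the trophoblast specification list (-0.25) and the stem cell identity list (0.59), and the fibroblast and macrophage lists lie below -1; relative to the stem cell identity genes the first of these medians is -0.17.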

How the data were processed

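Total RNA of 1 culture labelled Mof null and 1 labelled Mof wild type was biotin-labelled and hybridised to 1 Affymetrix array per culture. The log2 values deposited by the authors cover 45101 probe sets and come from RMA (affy, R 2.10.0), per the submitters' processing notes. RMA corrects background, quantile-normalizes across arrays and summarises probes by median polish, so a shift of most transcripts cannot be seen and differences near the floor are compressed. Deposited values ran from 2.85 to 14.7 on the array labelled null and from 2.77 to 14.6 on the array labelled wild type. Neither scanner intensities nor detection calls entered, and the number of arrays, 1 per genotype, limits the precision.

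The platform annotation supplied with the data names 1 gene symbol for 34958 probe sets and several for 932, and leaves 9211 unnamed here. The Entrez IDs of all 10 genes were found in the RefSeq table of GRCm38.p6, whose names, chromosomes and promoter sequences were used. The level filter was the median (percentile 50) of all values. Members, lists and rules were chosen with earlier results of these data known. The named genes are the 10 genes, Kat8 and marker genes fixed for each cell type. Of the trophoblast, placental and Rhox lists the expressed genes with the largest absolute difference, at most 4, are named too. Other measured genes are named to state a limit, such as passing the filter on 1 array alone or unlike probe sets. The prolactin genes were chosen after their values were seen. Since 2 arrays give 1 difference per gene, no likeness between genes was measured. Counting and trend correction were tested on simulated data. Alternatives were another choice of probe sets, filter, scaling or threshold. Python 3.11.15, numpy 2.4.6, pandas 2.3.3, statsmodels 0.14.6 (lowess, span 0.3) and matplotlib 3.10.9 were used.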

Additional observations from a re-analysis of the deposited data

How the results depend on the processing

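The count of members at least 2-fold higher was 2 in the values as deposited and ranged from 0 to 3 over 10 alternatives. It was 1 without probe sets with the suffix _s_at, _x_at or _a_at, with the filter at percentile 75, after centring on the median expressed gene and after the lowess correction, and 0 relative to the stem cell identity genes and at 4-fold. The suffix rule removes the only Esx1 probe set, and both corrections bring Esx1 just under 2-fold. The count at least 2-fold lower was 1, and 0 with the filter at percentile 75, after quantile normalization, where Gata3 no longer reached the filter, and at 4-fold. The median of 0.42 became 1.24 with the filter at percentile 75, which left 1 member, Tfap2c, and -0.17 relative to the stem cell identity genes. Tfap2c and Eomes were positive under all 6 alternatives that gave each a difference, and Esx1 was positive under 5 of 5. Gata3 and Ascl2 were negative under all 6, but this is not read as a result. Centring, the lowess correction and the stem cell scaling lowered every member, so a negative sign could not change there. The only Gata3 probe set also kept its difference of -1.10 under both other choices of probe sets. The differences of Cdx2, Hand1, Plac1, Rhox6 and Rhox9 each turned negative under 1 of 6, the scaling on the stem cell identity genes, which subtracts the same amount from every gene. The counts of the trophoblast specification list ranged from 0 to 2 higher and from 0 to 6 lower, those of the placental list from 1 to 2 and from 0 to 3, and that of Rhox5 and Rhox13 from 0 to 2 higher. Over all genes, 611 were at least 2-fold higher and 1429 lower as deposited, 2084 and 2303 passed 1.5-fold, and 35 and 389 passed 4-fold. No paired analysis was possible because each genotype has 1 array, and no array could be left out.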
